A study of Mus musculus with 42 samples.

Results

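The 9 genes followed were the 5 subunits Nfkb1 (p105, processed to p50), Nfkb2 (p100, processed to p52), Rel (c-Rel), Rela (p65) and Relb, the 3 cytoplasmic inhibitors Nfkbia (IkB alpha), Nfkbib (IkB beta) and Nfkbie (IkB epsilon), and Tnfaip3 (A20), a ubiquitin-editing enzyme that damps signalling from the TNF receptor and Toll-like receptors. They were found by symbol on a one-colour Agilent mouse array, where 13 of 41174 probes carried one of these names, and they made up 9 of the 21085 genes named there. Nfkb1 had 4 probes, Rela had 2, and each of the other 7 genes rested on 1 probe of 60 bases. Of the 13 probes, 9 were well above background on all 42 arrays, 3 on 41 of 42, and the Rel probe on 7 of 42, the fewest of any member.

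NF-kB is a family of transcription factors whose dimers are held in the cytoplasm by inhibitory IkB proteins until a signal from a cytokine or a pattern receptor has the inhibitor phosphorylated and degraded. The released dimers enter the nucleus and switch on genes of inflammation, and among the genes they switch on are their own inhibitors, so that the pathway ends its own activity. In vessel walls the pathway is known for its part in endothelial activation and atherosclerosis, and in skeletal muscle for its part in inflammation and wasting.

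The arrays came from aorta and skeletal muscle of 7 groups of male mice, aged 18 to 20 weeks when they entered the study, with 3 arrays for each group and tissue. Healthy mice (group G) were C57BL/6 and the other 6 groups were KK/Ay, a strain with spontaneous type 2 diabetes, so strain and diabetes cannot be told apart in any comparison with the healthy group. Vascular disease was induced in the macroangiopathy group (C) and the 4 treated groups, but not in the diabetic group (A), with high-fat diet and L-NAME, which blocks nitric oxide synthase, at 0.2 mg/ml over 8 weeks. The treated mice were given by gavage over 8 weeks the herbal SHENQI compound (B), yangyinyiqi (D) or huoxue (E), which are further herbal formulas, or rosiglitazone (F), an agonist of the nuclear receptor PPAR gamma, and the other groups were given saline. Replicates were separate samples by label, and 3 mice of each group gave tissue. The 2 tissues may therefore share mice, but the labels do not tie aortic to muscle arrays, so the fits took the 6 arrays of a group as independent and p-values measure the spread between these samples.

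The 42 arrays lay on 11 slides scanned on 4 days, most slides held a single tissue, and between 49.1% and 73.5% of probes on an array were well above background. Markers of skeletal muscle averaged 15.71 to 16.32 on the log2 scale in the muscle arrays, while in aorta they ranged from 7.28 to 14.65, and their part in the aortic levels was not tested. Smooth muscle markers ranged from 9.42 to 13.63 in aorta and from 9.95 to 10.94 in muscle, and adipocyte markers from 12.75 to 15.19 in aorta. In bulk tissue of this kind, fewer cells of a type and less RNA per cell cannot be told apart.

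Several of the members carry a kB motif just ahead of a transcription start, and these stretches are shown because the feedback genes are known targets of the factors themselves. RefSeq windows of the 250 bases before each start (GRCm38.p6) were found for 7 members, 10 windows in all, with none for Nfkb1 and Relb. The kB decamer was searched on both strands, and its matches, which may overlap, are in capitals below. A match was present in 7 of the 10 windows and in 5 members (Nfkb2, Rel, Nfkbia, Nfkbie and Tnfaip3), against 2382 of all 32851 windows, or 7.25%. Windows of Rela and Nfkbib held none, nor did another Tnfaip3 window, at chr10:19011964-19012213.
Nfkbia, chr12:55492648-55492897, minus strand: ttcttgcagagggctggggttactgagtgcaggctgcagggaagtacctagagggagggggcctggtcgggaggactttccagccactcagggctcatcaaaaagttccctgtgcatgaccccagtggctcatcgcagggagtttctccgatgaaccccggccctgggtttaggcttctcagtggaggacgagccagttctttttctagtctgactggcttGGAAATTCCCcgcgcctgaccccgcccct
Nfkbie, chr17:45555450-45555699, plus strand: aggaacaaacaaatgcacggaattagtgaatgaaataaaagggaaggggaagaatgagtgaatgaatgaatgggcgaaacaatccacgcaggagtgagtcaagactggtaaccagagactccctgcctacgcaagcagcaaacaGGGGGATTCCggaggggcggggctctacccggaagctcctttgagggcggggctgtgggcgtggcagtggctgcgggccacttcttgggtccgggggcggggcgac
Tnfaip3, chr10:19015411-19015660, minus strand: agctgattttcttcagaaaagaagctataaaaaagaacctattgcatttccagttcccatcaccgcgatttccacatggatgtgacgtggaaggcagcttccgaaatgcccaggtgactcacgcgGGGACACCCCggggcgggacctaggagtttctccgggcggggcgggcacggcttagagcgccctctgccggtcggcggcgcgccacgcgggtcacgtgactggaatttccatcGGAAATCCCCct
Nfkb2, chr19:46304487-46304736, plus strand: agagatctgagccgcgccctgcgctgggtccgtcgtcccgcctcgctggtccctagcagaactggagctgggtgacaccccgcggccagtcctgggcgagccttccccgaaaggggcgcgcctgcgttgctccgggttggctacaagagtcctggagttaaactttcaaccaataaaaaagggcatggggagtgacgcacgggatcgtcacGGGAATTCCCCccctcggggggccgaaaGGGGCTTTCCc
Rel, chr11:23770970-23771219, minus strand: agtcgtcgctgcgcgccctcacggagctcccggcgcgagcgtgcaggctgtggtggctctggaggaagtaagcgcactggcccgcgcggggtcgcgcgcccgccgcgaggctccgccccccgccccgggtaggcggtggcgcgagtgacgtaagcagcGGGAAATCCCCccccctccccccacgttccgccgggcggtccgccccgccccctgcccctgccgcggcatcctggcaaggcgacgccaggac
The Nfkbia match lay 29 bases before the start. In the Tnfaip3 window shown the nearer match began 12 bases before the start, and in the Nfkb2 window shown the nearest began 11 bases before it. These are matches of letters and were not tested as binding sites.

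The level of a gene below is the log2 intensity of its probe, or the mean over its probes, and levels of different probes are not compared with each other. To show what was hybridised for the 3 genes that recur in the comparisons, the sequences of their probes follow, with positions in mm9 as annotated in the array files. Each position spans more bases than the probe is long, so these probes cross from exon to exon.
Nfkb2, chr19:46386146-46386285, plus strand: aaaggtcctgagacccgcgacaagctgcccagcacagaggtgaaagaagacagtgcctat
Nfkbia, chr12:56590945-56591440, minus strand: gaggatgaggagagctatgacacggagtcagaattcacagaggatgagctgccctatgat
Nfkbib, chr7:29544167-29544848, minus strand: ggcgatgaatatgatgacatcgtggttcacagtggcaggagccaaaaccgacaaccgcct

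**Figure D1:**
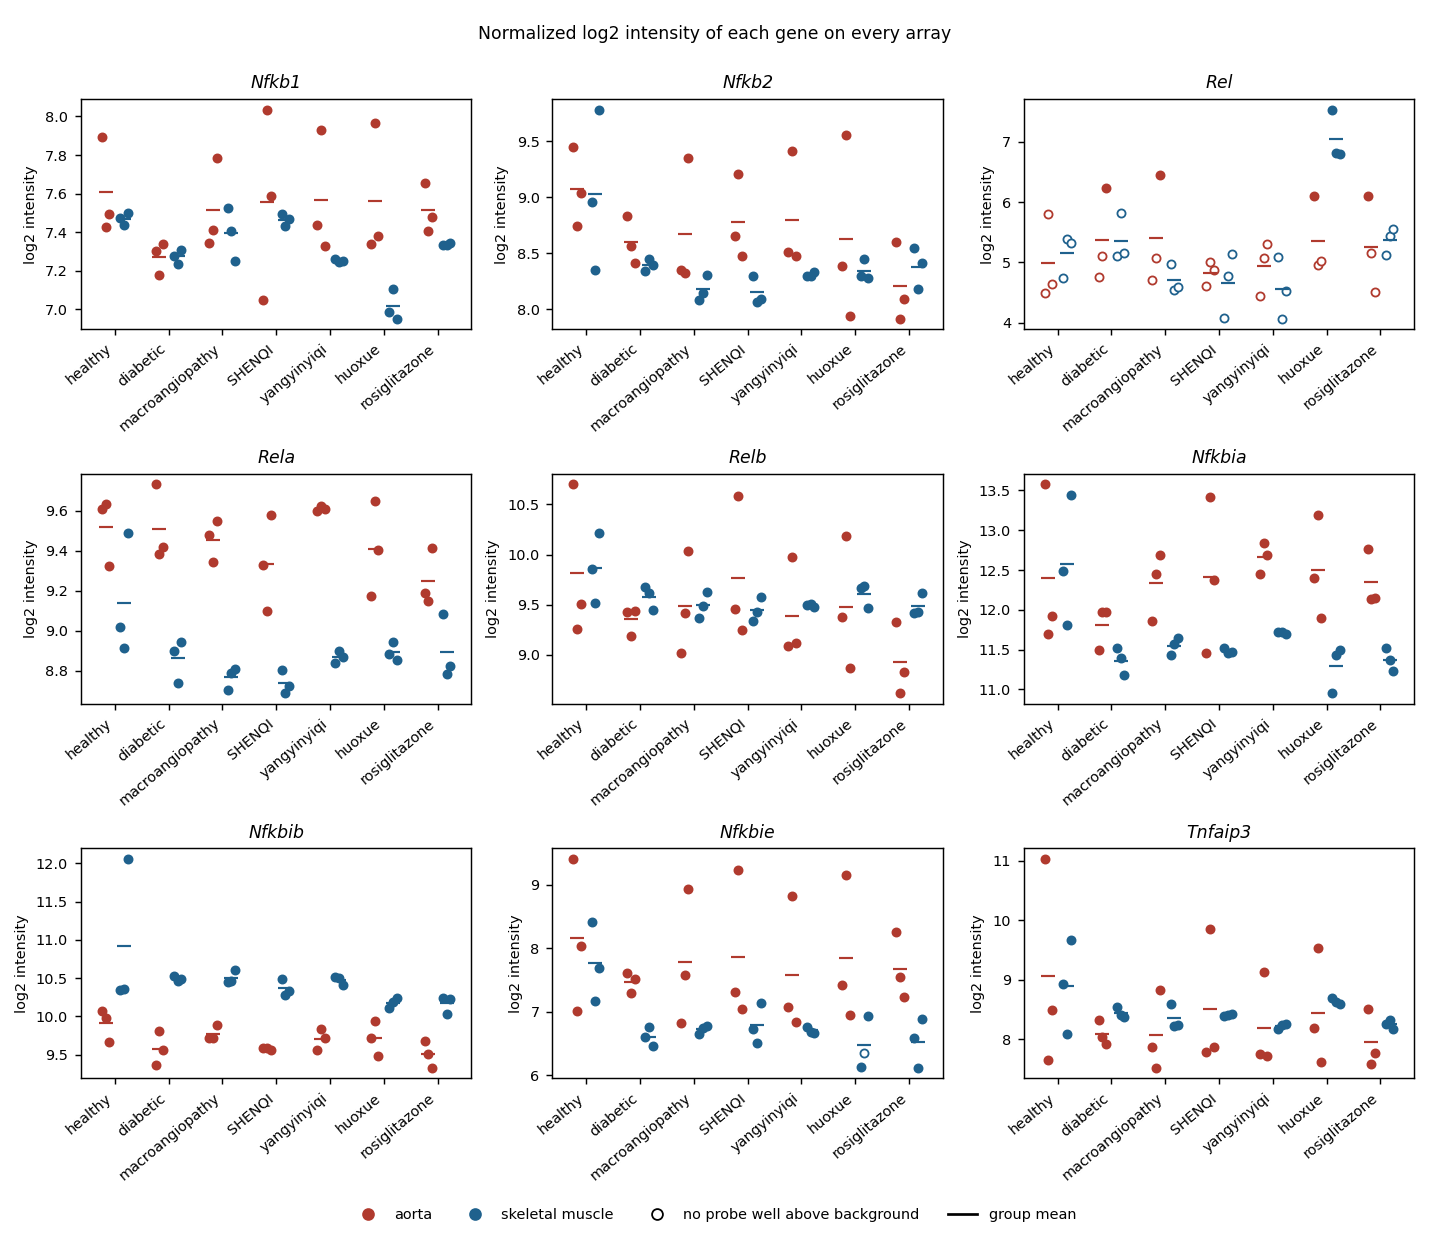
Log2 intensity of each of the 9 genes on every array (points) in the 7 groups, aorta and skeletal muscle apart, with the mean of the 3 arrays as a bar. Rel stands out in the muscle of the huoxue group, where the 3 arrays lie between 6.81 and 7.53, and healthy samples spread widely for Nfkbia, Nfkbie and Tnfaip3.

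The first comparison asked how the diabetic state differs from health. In diabetic mice all 8 tested members were lower than in healthy mice over both tissues, with a median log2 difference of -0.47 against 0.03 over all 14785 genes tested, of which 46.1% were below 0. None passed the adjusted threshold of 0.05 in limma, which 4.51% of all genes did. At unadjusted p below 0.05, 4 of the 8 were lower, against 9.35% of all genes lower and 22.1% in either direction. Rel was not tested because its probe was not above background in any complete set of arrays.

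Among the inhibitors, Nfkbia, the IkB that NF-kB re-induces fastest, read 12.49, 11.82 and 13.44 in healthy muscle and 11.52, 11.39 and 11.18 in diabetic muscle. In aorta it read 13.58, 11.70 and 11.92 in healthy and 11.50, 11.98 and 11.97 in diabetic samples. The muscle groups did not overlap, while in aorta a single healthy array was high and the rest overlapped. Over both tissues the difference was -0.90 (SE 0.34, adjusted p = 0.156), and within muscle -1.22 (SE 0.38, adjusted p = 0.13).

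Nfkbie, a second inducible IkB, had the same layout. It read 8.42, 7.17 and 7.70 in healthy muscle against 6.61, 6.76 and 6.47 in diabetic muscle, and 9.41, 7.02 and 8.04 in healthy aorta against 7.62, 7.29 and 7.52 in diabetic aorta. The muscle values did not overlap and the aortic values did. The difference over both tissues was -0.92 (SE 0.34, adjusted p = 0.15), and in muscle alone -1.15 (SE 0.31, adjusted p = 0.0881). Nfkbib, the slowly degraded IkB beta, differed by -0.38 (SE 0.26, adjusted p = 0.401), and 1 healthy muscle array at 12.06 stood far above every other muscle array, which read 10.04 to 10.61.

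Of the subunits, Nfkb2 of the non-canonical arm read 9.45, 8.74 and 9.03 in healthy aorta and 8.83, 8.56 and 8.41 in diabetic aorta. In muscle it read 8.96, 8.35 and 9.78 against 8.34, 8.44 and 8.39. The groups overlapped in both tissues, and the difference was -0.56 (SE 0.21, adjusted p = 0.161). Its dimer partner Relb differed by -0.38 (SE 0.22, adjusted p = 0.34) and Rela, the transactivating partner of p50, by -0.14 (SE 0.13, adjusted p = 0.539).

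Nfkb1 was the only member whose diabetic and healthy arrays did not overlap in either tissue, a layout seen in 3.05% of all genes tested for lower values. It read 7.90, 7.43 and 7.50 in healthy and 7.30, 7.18 and 7.34 in diabetic aorta, and 7.47, 7.44 and 7.50 against 7.28, 7.24 and 7.31 in muscle. The difference was -0.26 (SE 0.11, adjusted p = 0.17). Tnfaip3 had the widest spread, with 11.03, 7.65 and 8.50 in healthy aorta, and differed by -0.71 (SE 0.47, adjusted p = 0.397).

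The 4 probes of Nfkb1 disagreed. The probe printed at 10 spots (chr3:135247710-135247771, minus strand, mm9) was lower in diabetic mice by a log2 difference of -0.65 (SE 0.14), with an adjusted p of 0.0242 over 25609 probes. Differences at the other 3 probes were -0.13, -0.24 and -0.04, with unadjusted p of 0.326, 0.108 and 0.815. In muscle, values of the 10-spot probe went with the slide: they lay between 7.75 and 8.18 on slides 3, 4 and 7 and between 7.09 and 7.45 on slides 5, 8 and 11, where all diabetic muscle arrays were on slide 5. Differences between slides held 95.6% of this probe's variance in muscle, above 99.1% of 25338 probes, whose median was 57.6%. The Nfkbib probe had a like share of 96%, with the healthy array at 12.06 the only muscle array of slide 4. Within the SHENQI group, which had muscle arrays on both sorts of slide, the 10-spot Nfkb1 probe read 7.30 on slide 5 and 7.91 and 7.96 on slide 7. The macroangiopathy and rosiglitazone groups also had muscle arrays on both sorts of slide, where this probe ranged from 7.145 to 8.06 and from 7.435 to 8.009. The part of the slide in the lower diabetic value of the 10-spot probe was not tested.

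**Figure D2:**
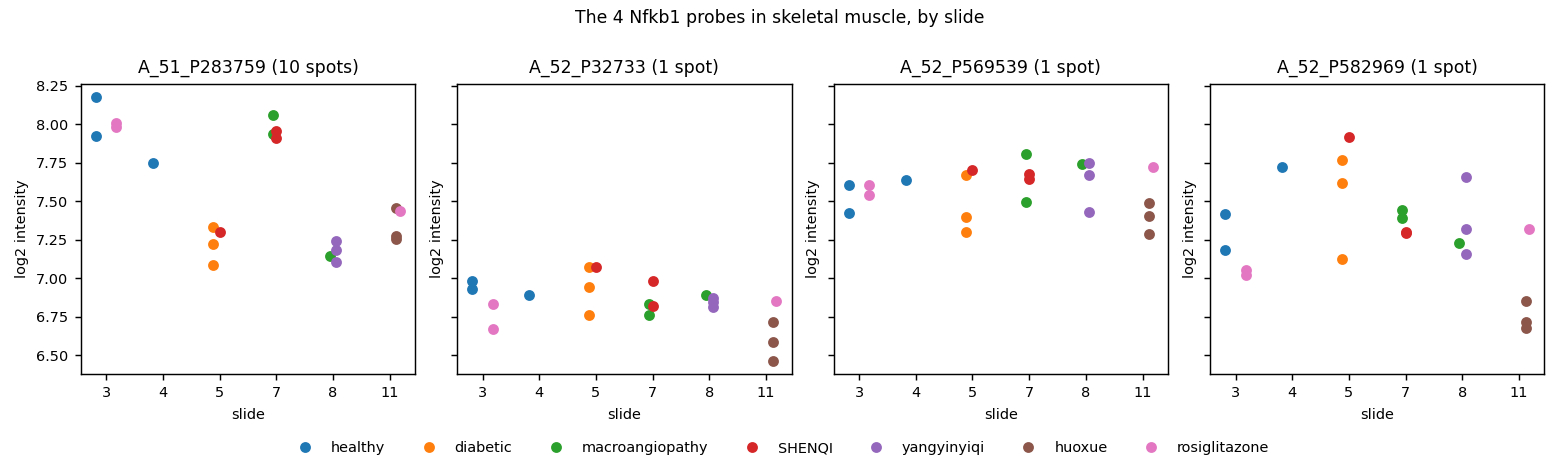
Log2 intensity of the 4 Nfkb1 probes on the 21 muscle arrays, ordered by slide, with points coloured by group. The 10-spot probe lies between 7.75 and 8.18 on slides 3, 4 and 7 and between 7.09 and 7.45 on slides 5, 8 and 11, whatever the group, and the other 3 probes show no such step.

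Markers of immune cells lay on the same side, though none passed the adjusted test over both tissues. The 12 macrophage markers, all detected on every array, averaged 8.95 to 10.23 in healthy muscle against 8.45 to 8.51 in diabetic muscle, and 8.45 to 10.46 in healthy aorta against 8.56 to 8.95. All 12 had differences below 0 over both tissues (median -0.70, 5 at unadjusted p below 0.05 and 0 after adjustment), as had the 9 tested of 11 lymphocyte markers (median -0.97). Smooth muscle markers averaged 11.21 in healthy aorta against 13.04 in diabetic aorta, and among adipocyte markers Lep rose by 2.29 on the log2 scale (adjusted p = 0.000616) while Cfd fell by 2.38 (adjusted p = 0.0367). The part of these markers in the lower values of the NF-kB genes was not tested. On the single slide that held both groups in the same tissue, with 1 diabetic and 2 healthy aortic arrays, the differences were -1.25 for Nfkbia, -1.11 for Nfkbie, -0.41 for Nfkb2 and -0.40 for Nfkb1. Of the tested members only Rela was higher there, by 0.27. These differences rest in part on healthy array 1. Nfkbia read 13.58 on it, 11.92 on the other healthy array and 11.50 on the diabetic array, and Nfkbie read 9.41, 8.04 and 7.62. Of the 4 members at unadjusted p below 0.05, none stayed there with scan day as a term, an alternative added after the data were seen. The count was 6 without healthy aortic array 2.

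The genes around the core were read from lists. Of 28 kinases and adaptors that carry the signal to NF-kB, 27 were tested in diabetic against healthy mice and 1 rose after adjustment, Tab1, a subunit of the TAK1 kinase complex, with a log2 difference of 0.63 (adjusted p = 0.0281), against 4.51% of all genes called. None fell, and the median was -0.18. No member passed among 16 tested of 22 ligands and receptors or among 20 tested of 22 other inhibitors. In the last list Nfkbiz, an inducible nuclear IkB, had the smallest unadjusted p of 0.00595 with a difference of -0.97, and Tnip1, which binds A20, had a difference of 0.78 at an unadjusted p of 0.00728.

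Target genes of NF-kB were the list with most calls. Of 36, 26 were tested, 4 fell after adjustment and none rose, with a median of -0.36. The chemokine Cxcl10 fell by 2.15 on the log2 scale (adjusted p = 0.0314) and the chemokine Ccl5 fell by 2.89 (adjusted p = 0.041). The gelatinase Mmp9 fell by 0.95 (adjusted p = 0.0416) and the complement component C3 fell by 1.17 (adjusted p = 0.0437). Of all genes tested, 4.51% were called in either direction.

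**Figure D3:**
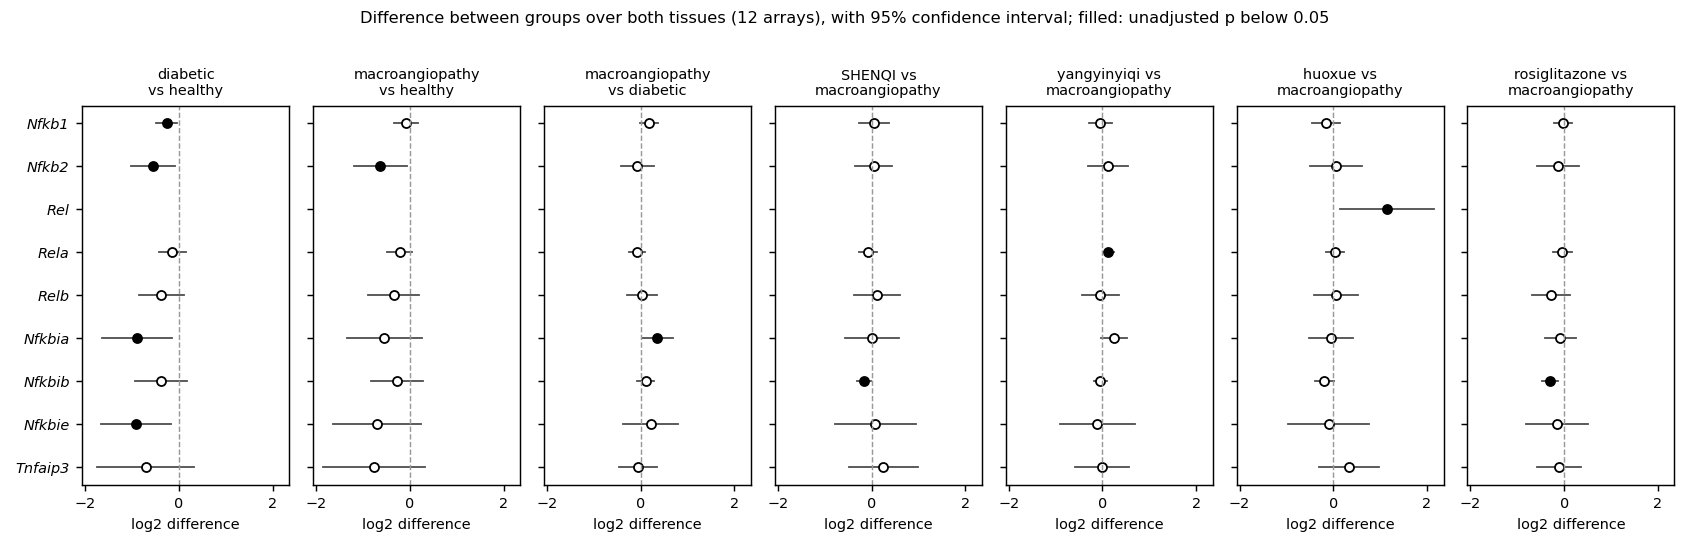
Log2 difference of each tested member with its 95% confidence interval (bars) in the 7 comparisons over both tissues, 12 arrays each. Filled points mark an unadjusted p below 0.05, and all 8 members lie below 0 against the healthy group, while most intervals of the drug comparisons span 0.

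The macroangiopathy group was set against the same healthy arrays, so this comparison and the one above share their controls. All 8 tested members were again below 0, with a median of -0.45 against 0.03 over 15697 genes, of which 46.5% were below 0. None was called after adjustment, against 5.21% of all genes, and 1 of 8 was at unadjusted p below 0.05, against 24.3%. The latter count was 0 with slide as a block and without any 1 of healthy aortic array 1, healthy muscle arrays 1 and 3, macroangiopathy aortic arrays 1 and 2 and macroangiopathy muscle arrays 1 and 2, and it was 3 without healthy aortic array 2. That member was Nfkb2, which read 8.35, 8.32 and 9.35 in macroangiopathy aorta and 8.08, 8.14 and 8.31 in macroangiopathy muscle. In muscle these lay below all 3 healthy arrays, and in aorta the groups overlapped. The difference was -0.63 (SE 0.26, adjusted p = 0.164), and no slide held both groups.

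For the other members the differences from healthy mice were side by side -0.55 for Nfkbia, -0.71 for Nfkbie, -0.77 for Tnfaip3 and -0.08 for Nfkb1. Macrophage markers were below 0 here too, 12 of 12 with a median of -0.84 and 6 at unadjusted p below 0.05. Smooth muscle markers averaged 13.40 in macroangiopathy aorta, with 7 of 8 above healthy aorta at unadjusted p below 0.05 and 0 after adjustment, and the part of either list was not tested. Of the 27 kinases and adaptors tested 1 fell, Irak4, the kinase nearest to MYD88, with a difference of -0.35 (adjusted p = 0.0293). Of 28 target genes tested 2 fell, C3 by 1.15 (adjusted p = 0.0238) and Mmp9 by 0.90 (adjusted p = 0.0372), and 5.21% of all genes were called. None was called among 17 ligands and receptors or 21 other inhibitors.

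Within KK/Ay mice, the addition of L-NAME and high-fat diet left no member called, and no gene of the 15677 tested was called either (0%). At unadjusted p below 0.05, 1 of 8 members passed, against 5.13% of all genes. Nfkbia read 11.86, 12.45 and 12.70 in macroangiopathy aorta and 11.44, 11.57 and 11.64 in macroangiopathy muscle, overlapping the diabetic arrays given above in both tissues. The difference was 0.36 (SE 0.15, adjusted p = 0.957). The diabetic arrays entered the first comparison as well.

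Each treatment was compared with the macroangiopathy group, whose 6 arrays are therefore shared by the 4 comparisons. With SHENQI compound 0 of 8 members were called, as was no gene at all (0%), and 1 of 8 was at unadjusted p below 0.05, against 2.73% of all genes. That was Nfkbib, at 9.59, 9.58 and 9.56 in treated aorta against 9.72, 9.72 and 9.89 in macroangiopathy aorta, with no overlap. In muscle it read 10.49, 10.28 and 10.34 against 10.44, 10.47 and 10.61, which overlapped. The difference was -0.17 (SE 0.07, adjusted p = 1), and -0.15 on the 1 muscle slide that held 2 arrays of each group. Intervals for several other members were wide, for example -0.57 to 0.58 for Nfkbia and -0.79 to 0.94 for Nfkbie. Changes within these intervals were not detectable for these genes with these arrays. Rela had a smaller SE of 0.09.

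With yangyinyiqi again 0 of 8 members and no gene (0%) were called, and 1 of 8 members was at unadjusted p below 0.05, against 3.45% of all genes. Rela read 9.60, 9.62 and 9.61 in treated aorta against 9.48, 9.34 and 9.55, and 8.84, 8.90 and 8.87 in treated muscle against 8.71, 8.79 and 8.81. For the mean of the 2 Rela probes, all treated arrays lay above all macroangiopathy arrays of their tissue. This was so for 0.252% of all genes in this direction. At the brighter probe the aortic groups overlapped, with 11.54 to 11.70 treated against 11.44 to 11.65. The single probes had unadjusted limma p of 0.077 and 0.0629. The count at unadjusted p below 0.05 was 0 with the brightest probe, the deposited log2 values, no tissue term or scan day. It was 2 with slide or replicate number as a block. The difference of the mean was small at 0.13 (SE 0.05, 95% interval 0.01 to 0.24, adjusted p = 0.999). On slides with both groups it was 0.14 in aorta, with 1 against 3 arrays, and 0.06 in muscle, with 3 against 1.

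With rosiglitazone 0 of 8 members were called, against 1 gene or 0.00633% of those tested, and 1 of 8 was at unadjusted p below 0.05, against 12.1%. Nfkbib read 9.68, 9.51 and 9.33 in treated aorta against 9.72, 9.72 and 9.89, and 10.24, 10.04 and 10.23 in treated muscle against 10.44, 10.47 and 10.61. The treated arrays were lower without overlap in both tissues, as were 1.4% of all genes. The difference was -0.30 (SE 0.08, 95% interval -0.48 to -0.13, unadjusted p = 0.00257, adjusted p = 0.171), the smallest p of any member in the 4 treatment comparisons over both tissues. No slide held arrays of both groups in 1 tissue, so slide and treatment cannot be told apart here. Of the variance of the Nfkbib probe in muscle, 96% lay between slides and 36.7% between groups. These shares are over the muscle arrays of all groups. They include healthy array 3 at 12.06, the only muscle array of slide 4, which is not part of this comparison.

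With huoxue, calls among the members came in muscle. Over both tissues 0 of 9 members were called, as was no gene (0%), and 1 of 9 was at unadjusted p below 0.05, against 14.3% of all genes. That was Rel, which entered the test only because its probe was well above background in huoxue muscle. In muscle alone, 3 of 9 members were called, Rel among them, but so were 32.4% of the 13374 genes tested there, the largest share among the 7 comparisons in muscle. All 3 huoxue muscle arrays were on slide 11 and the macroangiopathy muscle arrays on slides 7 and 8, so slide and treatment cannot be told apart. On slide 11 between 49.1% and 52.3% of probes were well above background, against 54.1% to 65.2% on the other muscle arrays. Some markers of vessel cells fell in the same contrast, with Esam at -1.35 (adjusted p = 0.000305), Cdh5 at -0.85 (adjusted p = 0.0043) and Smtn at -0.43 (adjusted p = 0.00439). These are 2 of 8 endothelial and 1 of 8 smooth muscle markers. The remaining endothelial markers were not called and ranged from -0.09 for Vwf to 0.28 for Pecam1. Mylk, another smooth muscle marker, rose by 0.24 (adjusted p = 0.0474), and the rest of that list was not called. Esam, Cdh5 and Smtn were also lower in rosiglitazone than in macroangiopathy muscle, at -1.14, -0.44 and -0.47 (adjusted p = 0.024, 0.0232 and 0.034). The part of depth of signal and of these markers in the calls was not tested.

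Rel, the c-Rel subunit best known from lymphocytes and myeloid cells, read 7.53, 6.81 and 6.81 in huoxue muscle, where all 3 arrays were well above background. In the muscle of the other 6 groups its probe was not well above background on any of 18 arrays, which read 4.07 to 5.83. The measured means were 7.05 in huoxue and 4.70 in macroangiopathy muscle, and the fit gave an adjusted p of 0.000438. Since Rel was tested only through the group in which it was high, and against readings at background, that p is no independent support. The highest detection floor of any muscle array was 6.29, on huoxue array 3. It was taken for all of them, a choice made after the data were seen. The huoxue mean then lay at least 1.69-fold above the muscle of each other group. This holds for the mean only, since the arrays at 6.81 lie nearer to that floor. It is a description drawn from the same values. Floors taken array by array ranged from -0.74 to 6.29 and give no common bound.

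A rosiglitazone muscle array shared slide 11 with the huoxue arrays, and its Rel probe read 5.13 and was not well above background. In aorta the probe was well above background on 4 arrays of 4 different groups, at 6.09 to 6.45. In huoxue aorta Rel read 6.09, 4.95 and 5.02, overlapping the macroangiopathy values of 4.72, 5.07 and 6.45. The measured muscle difference of 2.35 log2 was 0.93 with an offset of 50 in the background correction and 4.51 in the authors' value table, so its size depends on how signal at background is treated.

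Nfkb1 and Nfkbib were the other called members in huoxue muscle, and both fell. Nfkb1 read 6.99, 7.11 and 6.95 against 7.52, 7.41 and 7.25, and Nfkbib read 10.10, 10.18 and 10.24 against 10.44, 10.47 and 10.61. Neither pair of groups overlapped. Nfkb1 fell by 0.38 on the log2 scale (SE 0.09, adjusted p = 0.0201) and Nfkbib fell by 0.33 (SE 0.08, adjusted p = 0.0201). Both calls were lost when no background filter was applied (adjusted p = 0.0505 and 0.0502) and without huoxue muscle array 1 (adjusted p = 0.0554 and 0.0601). Nfkb1 was also not called without macroangiopathy array 1 or huoxue array 3 (adjusted p = 0.0708 and 0.0595), nor Nfkbib without macroangiopathy array 3 or huoxue array 2 (adjusted p = 0.0567 and 0.0562). On slide 11 huoxue differed from the single rosiglitazone array by -0.32 for Nfkb1 and -0.06 for Nfkbib.

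The lists around the core had calls in both directions in huoxue muscle. Of 26 kinases and adaptors tested 7 rose and 2 fell, among them Myd88, the adaptor of Toll-like receptors, at 0.47, Tab3 at 0.42, Tradd at 0.40 and Chuk, which encodes IKK alpha, at -0.49. Of 12 ligands and receptors tested none rose and 4 fell, which were Ltbr, the lymphotoxin beta receptor that feeds the non-canonical arm, at -3.21 (adjusted p = 0.00467), Tlr4 at -0.86, Tlr2 at -0.36 and Tnfrsf1a at -0.28. Of 19 other inhibitors 5 rose and 3 fell, with Tnip1 at -0.81, Bcl3 at -0.71, N4bp1 at -0.55 and the deubiquitinase Cyld at 0.37. Of 23 target genes 4 rose and 3 fell, with C3 at 0.56, Sod2 at -0.35, Csf1 at 0.33 and Ier3 at -1.07. These counts stand beside the 32.4% of all genes called there.

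In the 5 comparisons within KK/Ay mice over both tissues, no gene of the 4 lists was called after adjustment. Of all genes tested, 1 was called with rosiglitazone (0.00633%) and none in the others (0%), so the lists do not stand apart here.

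Arrays of a single aortic group spread widely for some members. For Nfkbie the within-group SD in aorta was 0.99 log2, above the range of 0.68 between the means of the 7 groups, and for Tnfaip3 it was 0.99 against a range of 1.11. The SD exceeded the range of group means for 2 of 9 members in aorta, Rel and Nfkbie, and for 0 of 9 in muscle. In muscle the SDs of Nfkbie and Tnfaip3 were 0.35 and 0.31. Rela and Nfkbib were steady in aorta, both at an SD of 0.17.

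The aortic spread was shared by several members and fell on particular arrays. Tnfaip3 read 11.03 on healthy array 1, 9.86 on SHENQI array 2, 9.54 on huoxue array 2, 9.13 on yangyinyiqi array 2, 8.83 on macroangiopathy array 3, 8.51 on rosiglitazone array 1 and 8.33 on diabetic array 1, which was the highest of its group each time. Relb, the partner of p52, read 10.701, 10.58, 10.19, 9.97 and 10.04 on the first 5 of these arrays. The other aortic arrays read 7.51 to 8.50 for Tnfaip3 and 8.62 to 9.51 for Relb, where the 2 remaining arrays of the list, rosiglitazone 1 and diabetic 1, read 9.33 and 9.43. These arrays were also high in lymphocyte markers (11 genes, among them the T cell genes Cd3e and Cd3g).

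The mean of the 11 lymphocyte markers was 10.06, 9.71, 9.79, 9.58, 8.67, 8.61 and 7.79 on the 7 arrays in the order given, and 6.25 to 7.82 on the other 14. The array highest in these markers was also the highest in the member in all 7 groups for Nfkb2, Nfkbie and Tnfaip3, and in 6 of 7 for Nfkb1, Relb and Nfkbia. For Nfkbib it was 5, for Rela 4 and for Rel 3. Over 14710 genes the median was 2 of 7 groups, and 9.38% reached 6 or more. Macrophage markers gave 1 to 4 of 7 for the members. The part of lymphocytes in these levels was not tested.

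**Figure D4:**
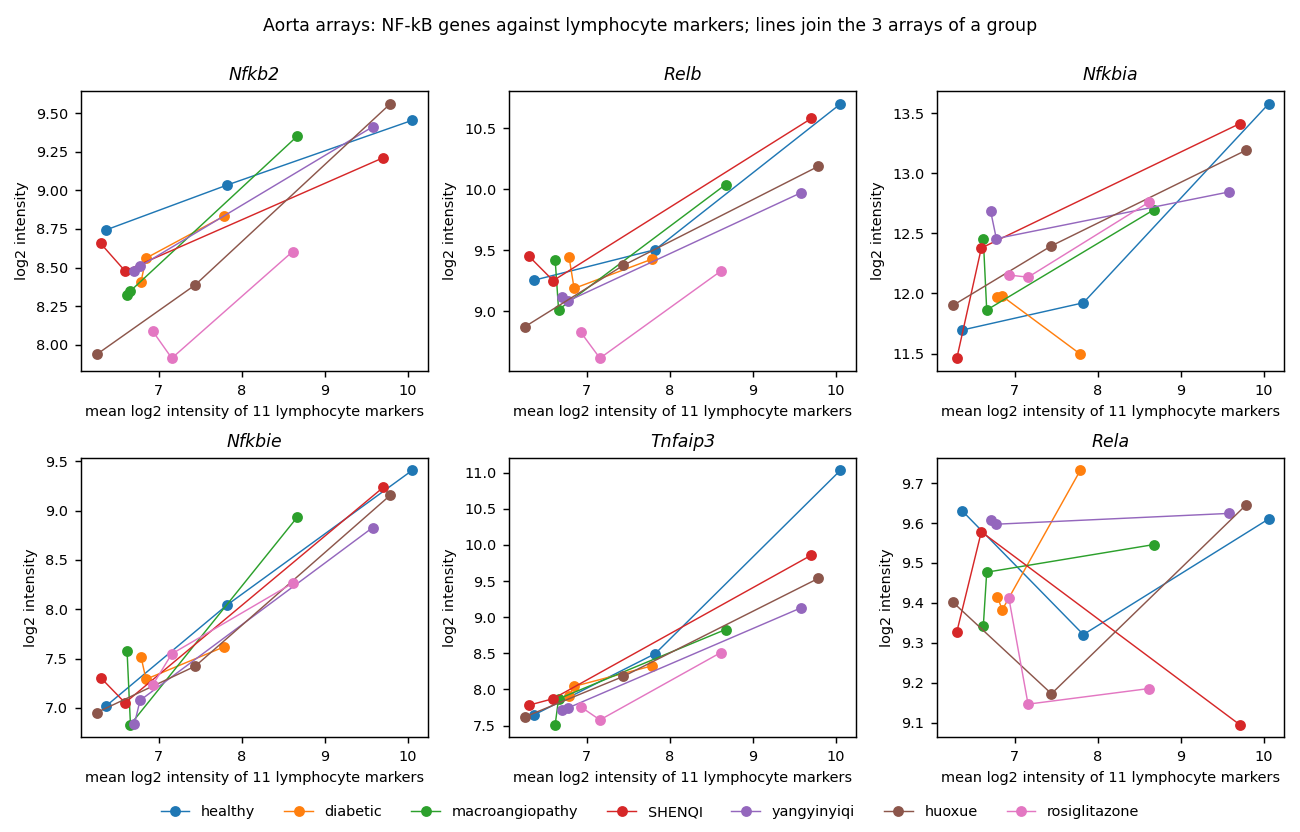
Log2 intensity of 6 of the genes on the 21 aortic arrays (vertical axis) against the mean log2 intensity of 11 lymphocyte markers (horizontal axis), with points coloured by group and lines joining the 3 arrays of a group. Nfkb2, Nfkbie and Tnfaip3 are highest at the right end of the line in all 7 groups, and Rela in 4.

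Deviations from the group mean went together for several members over the 21 aortic arrays, given as a description since all genes of an array share its RNA and slide. Pearson's r was 0.97 for Relb with Nfkbie, 0.95 for Relb with Tnfaip3, 0.92 for Nfkbie with Tnfaip3 and 0.91 for Nfkb2 with Nfkbie. For Rela and Rel the values were low, with r from -0.25 to 0.23 for Rela and from -0.25 to 0.40 for Rel over their 8 pairs each. In the 21 muscle arrays the closest pairs were Nfkb2 with Nfkbia at 0.89 and Nfkb2 with Nfkbib at 0.88, where healthy array 3 was the highest in all 3 genes, at 9.78, 13.44 and 12.06.

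Between the tissues, 6 of 9 members were called over the 42 arrays, against 76.4% of 16130 genes. Higher in aorta were Nfkbie by 0.97 (SE 0.21, adjusted p = 6.8e-05), Nfkbia by 0.73 (SE 0.16, adjusted p = 7.35e-05), Rela by 0.56 (SE 0.05, adjusted p = 4.66e-12), Nfkb2 by 0.28 (SE 0.12, adjusted p = 0.0321) and Nfkb1 by 0.20 (SE 0.07, adjusted p = 0.00827). Nfkbib was the only member called higher in muscle, with a difference of -0.76 (SE 0.09, adjusted p = 4.6e-10). Its values ranged from 9.33 to 10.08 in aorta (median 9.68) and from 10.04 to 12.06 in muscle (median 10.41), and overlapped only between healthy aortic array 1 at 10.08 and rosiglitazone muscle array 2 at 10.04.

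Rela ranged from 9.10 to 9.73 in aorta (median 9.42) and from 8.69 to 9.49 in muscle (median 8.85). Rel, Relb and Tnfaip3 had differences of -0.10, -0.11 and -0.12 with adjusted p of 0.633, 0.427 and 0.578. Tissue and slide are nearly the same split, and with slide as a random block Nfkb2 was no longer called (0.23, adjusted p = 0.168). Without slides 1, 3 and 11, neither Nfkb1 (0.17, adjusted p = 0.0677) nor Nfkb2 (0.32, adjusted p = 0.106) was called. In the scaled processed signal Nfkbia was no longer called (0.31, adjusted p = 0.0656).

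Genes whose pattern over the 14 group and tissue means, centred on each tissue, was most like that of a member were named from 14709 genes, as a description with no p. For Nfkb2 they were Clic4 (r = 0.94), Fbxo42 (0.94) and Map3k14 (0.94), the last of which encodes NIK, the kinase upstream of p100. For Nfkbia they were Xpa (0.93), Ripk1 (0.92) and 8430408G22Rik (0.92), and for Tnfaip3 Lyn (0.94), Dcp2 (0.94) and Tnfrsf26 (0.94). Nfkbie was closest to Hist1h2ao (0.96), Incenp (0.96) and Hist1h2ab (0.96), and Relb to Tcof1 (0.94), Ifnar2 (0.92) and Rab8a (0.91). For Nfkb1 they were Slc38a9 (0.91), Anp32a (0.91) and Ccdc76 (0.88), for Rela Ndst2 (0.94), Dmwd (0.93) and Col4a1 (0.91), and for Nfkbib Ang4 (0.95), Tpd52l2 (0.94) and H2-Q4 (0.93).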

How the data were processed

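Total RNA of 42 samples was hybridised to one-colour Agilent arrays. The authors deposited scanner output, from Agilent Feature Extraction version 10.7 per the submitters' notes, as spot intensity on a linear scale with local background, and processed log2 values. The deposited files held mean intensity on only 8 arrays (slides 1 and 3), so median intensity was used. It was background corrected (normexp, offset 0), log2 transformed and quantile normalised over the 42 arrays. The 1639 control spots were left out, spots of a probe were averaged, and so were probes of a gene symbol, so that probes of one gene that disagree are merged. The background correction sets the differences of dim probes such as that of Rel.

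Groups came from the sample titles. A gene entered a test if any probe of it passed the scanner's well-above-background flag throughout the 3 arrays of some group and tissue in the comparison. Groups were compared with limma (lmFit and eBayes), with tissue as a term, and p-values were adjusted by Benjamini-Hochberg over all genes tested, with a call at adjusted p below 0.05. Tissue by group terms, fits within a tissue and a fit of tissue over all arrays were added. R 4.3.3, limma 3.58.1, the data.table package (version 1.17.8), Python 3.11.15, pandas 2.3.3 and matplotlib 3.10.9 were used, and the fits were tested on simulated data. Arrays carry no read depth, and 3 arrays a group limit the precision.

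The genes named are all 9 members, at most 4 of each pathway list per comparison by smallest p, and the 3 genes most like a member. The members and lists were chosen with earlier results of these data known. Promoter windows came from RefSeq (GRCm38.p6). Alternatives were another offset, the processed signal, the deposited log2 values, no filter, the brightest probe, no tissue term, other sets of arrays, slide or replicate number as a block, scan day, and leaving out each array. Deviations of same-numbered arrays of 2 groups in the same tissue had r from -0.524 to 0.592, without a common sign. Same-numbered aortic and muscle arrays were not compared in this way, so the check cannot tell whether they share a mouse. The main fits did not pair samples by number.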

Additional observations from a re-analysis of the deposited data

How the results depend on the processing

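No difference of a member changed sign while called under any alternative, and most counts of called members stayed the same. For the diabetic against the healthy group the count went from 0 to 1 with the brightest probe (Nfkb1) and with all 42 arrays in the fit (Nfkbia), and ranged from 0 to 1 when single arrays were left out, with 1 without healthy aortic array 2 (Nfkbie, -1.20, adjusted p = 0.0251). For macroangiopathy against healthy it was 1 with all 42 arrays (Nfkb2, adjusted p = 0.0469). For huoxue against macroangiopathy it was 3 in skeletal muscle alone and 1 with scan day as a term (Rel), an alternative chosen after seeing the data. Within muscle the 3 calls became 1 (Rel) with no filter and without huoxue muscle array 1, and single arrays left out gave 1 to 3. The members called also changed. Without macroangiopathy muscle array 1 Tnfaip3 was called (0.41, adjusted p = 0.0261) and Nfkb1 was lost. Without huoxue muscle array 3 Nfkbie was called (-0.48, adjusted p = 0.0208) and Nfkb1 was lost. With the brightest probe Nfkb1 was not called (adjusted p = 0.202), nor Nfkbib with the processed signal (adjusted p = 0.106). Between tissues single arrays left out gave 5 to 6, where Nfkb2 was lost. With the replicate number as a block the counts were 0 in each of the 7 comparisons over both tissues, 3 in huoxue muscle and 6 between tissues, so the block changed no count of calls. At unadjusted p below 0.05 the 4 members of the diabetic comparison became 0 with scan day as a term and in aorta alone, 2 in skeletal muscle alone, 3 without healthy aortic array 1, healthy muscle array 1 or 3, diabetic aortic array 2, or slides 1, 3 and 11, 5 with all 42 arrays and 6 without healthy aortic array 2. The 1 member of the macroangiopathy comparison with healthy mice ranged from 0 to 3 when single arrays were left out. The 3 arrays of a group leave differences such as those of Nfkbie in aorta, with an SD of 0.99, beyond what can be resolved.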

Other observations

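Read from the same fits were genes that respond to glucocorticoids or are transcribed within minutes of a stimulus. Lcn2 was both on the glucocorticoid list and among the target genes above. In diabetic against healthy mice over both tissues, 14 of 15 glucocorticoid-responsive genes were tested, all had differences below 0 (median -0.85), and 3 fell after adjustment, where 46.1% of all genes were below 0 and 4.51% were called. The cell cycle inhibitor Cdkn1a fell by 3.03 on the log2 scale (adjusted p = 0.000359), the metallothionein Mt2 fell by 2.92 (adjusted p = 0.0196) and the chaperone Fkbp5 fell by 1.38 (adjusted p = 0.0351). In macroangiopathy against the same healthy arrays Cdkn1a fell by 2.83 (adjusted p = 0.000758) and Mt2 fell by 2.65 (adjusted p = 0.0266). Of the immediate early genes 1 of 16 tested was called in diabetic mice and 1 of 17 in macroangiopathy, near the 4.51% and 5.21% of all genes called, and both times it was Fos, at -1.06 (adjusted p = 0.0456) and -1.05 (adjusted p = 0.0272). In the comparisons within KK/Ay mice over both tissues, none of either list was called. Of all genes tested there, 1 was called with rosiglitazone (0.00633%) and none in the others (0%).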
